A study of Mus musculus with 6 samples.

Results

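The genes described here are the interleukins and interleukin receptors outside the IL-1 family, in colon tissue of mice with colitis. The rule that chose them uses gene symbols and no expression value, and takes every gene of the expression table whose symbol begins with Il and a digit, without the IL-1, IL-18, IL-33 and IL-36 genes, together with Il6st, Lif, Lifr, Osm, Osmr, Csf2, and Csf3. This gave 63 of 27546 genes, made up of 28 ligands, 34 receptors, and 1 enzyme, Il4i1. RNA-Seq was done on colon tissue, with 1 library per mouse. It covered 3 mice lacking both copies of the lncRNA Gm31629 (Gm31629-/-, with a region of that gene on chromosome 1 deleted) and 3 WT littermates. All 6 mice were C57BL/6 (C57BL/6J in the methods), were 8 weeks old, drank water with 3% dextran sulfate sodium (DSS, a polymer that injures the colonic epithelium) for 7 days, and were sacrificed on day 8. No mouse without DSS was included, so that the genotypes are compared during colitis alone, and the deletion was present in every cell rather than in a chosen cell type.

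Interleukins are secreted proteins through which leukocytes, epithelium and connective tissue cells signal to each other, and a cell responds only where it carries the matching receptor chains. The receptors are built from a ligand-specific chain and a chain shared within a family, such as gp130 (Il6st) for IL-6, IL-11, LIF, and oncostatin M, the common gamma chain (Il2rg) for IL-2, IL-4, IL-7, IL-15, and IL-21, and IL-10Rb (Il10rb) for IL-10 and IL-22. Most of these receptors signal through JAK kinases and STAT proteins, while the IL-17 receptors use other adaptors. In the colon, IL-22, IL-6, and IL-11 are known for their action on epithelium and its repair, IL-10 for restraining macrophages, and IL-17 for epithelial defence and neutrophil recruitment.

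Expression is given as FPKM, the fragments of a gene corrected for its length and for library depth, which allows levels of different genes to be compared. Fold changes are differences of group means on the log2(FPKM + 1) scale, with standard errors (SE), so that changes of weakly expressed genes come out too small. A gene was tested with limma where the 6 mice averaged 0.5 FPKM or more, and was called higher or lower at a Benjamini-Hochberg adjusted p under 0.05 together with a log2 fold change above 1 or below -1. Values of 3 mice are listed in the order of mice 1, 2, and 3. The p-values set the difference of the group means against the spread between mice within the groups, taking each library as a separate mouse.

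From the step size of the FPKM values, the fragment total by which each library had been divided was 18000600 to 18791300, and the fragments summed over the listed genes came to 105% to 106% of that total (cause not tested). Gm31629-/- mouse 1 stood apart from the other libraries of both genotypes. It held Y-linked transcripts (Ddx3y at 9.27 and Eif2s3y at 15.4 FPKM, both listed at 0 in the other 5 mice). Its Xist was at 0.00606 FPKM, against 8.35 to 13.8 FPKM in the others. The methods of the study describe male mice, which the transcripts of mouse 1 match and those of the other 5 mice do not. It is also the mouse with the lowest value of its group for 21 of the 43 tested members (48.8%, against 31.9% of all tested genes), while Gm31629-/- mouse 2 had the highest value for 27 (62.8%, against 44.0%). Where a call or a direction turned on mouse 1, the value without it is given, with that without mouse 2 beside it where mouse 2 carried the difference. The level of Gm31629 itself was not analysed here.

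Cell type marker genes moved with genotype. The summed FPKM of 10 macrophage genes ran from 585 to 1290 in Gm31629-/- mice and from 58.0 to 73.2 in WT mice, with 10 of 10 called higher, and that of 10 pan-leukocyte genes from 114 to 199 and from 19.8 to 22.5, again with 10 of 10 higher. The neutrophil genes summed to 516 to 1032 against 70.5 to 128 (7 of 8 tested higher), mostly from Ly6g. Without Ly6g they came to 228, 144, and 67.5 in Gm31629-/- mice against 3.71 to 6.90. Elane and Mpo were under the filter and at 0 in WT mice. In Gm31629-/- mice Elane was at 0.0552, 1.16, and 0 FPKM and Mpo at 0, 0.665, and 0 FPKM, so both overlapped. The B and plasma cell genes summed to 308 to 527 against 117 to 132 (8 of 9 higher), or 237 to 432 against 15.5 to 22.4 without Sdc1, which was not called, and the T cell genes to 17.9 to 38.6 against 8.38 to 12.7 (3 of 9). Smooth muscle genes summed to 1165 to 1794 against 21.7 to 38.3 (9 of 10 higher), enteric neuron and glia genes to 38.6 to 131 against 2.82 to 5.41 (8 of 9, Elavl4 at 0 in WT mice), fibroblast genes to 220 to 629 against 20.9 to 42.6 (9 of 10), endothelial genes to 82.7 to 114 against 3.16 to 8.42 (10 of 10), and adipocyte genes to 188 to 543 against 39.1 to 88.4 (7 of 9). The innate lymphoid and Th17-type genes (35.2 to 48.4 against 26.1 to 38.8, 1 of 7 higher) and the mast cell and eosinophil genes (7.29 to 13.1 against 6.44 to 7.67, 1 of 5 higher) differed least among the immune lists in these full sums. Without Kit, the mast cell and eosinophil genes came to 4.06 to 7.59 against 1.56 to 2.22. The 15 epithelial genes summed to 7517 to 9056 against 12380 to 13460, with 4 lower and 0 higher. In bulk tissue, fewer cells of a type and less RNA per cell cannot be told apart. The part of these shifts in the results on interleukins was not tested beyond the 2 rescalings given next.

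**Figure D1:**
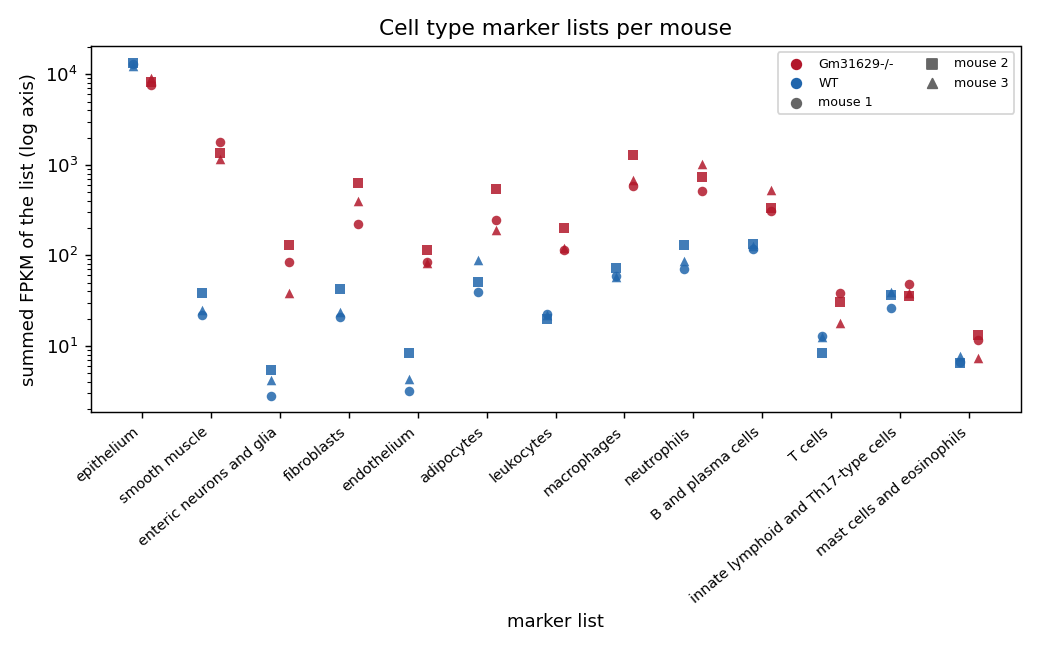
Summed FPKM of each cell type marker list (log axis) in each mouse, red for Gm31629-/- and blue for WT, with the symbol shape giving the mouse. The macrophage sums lie between 585 and 1290 in Gm31629-/- mice against 58.0 to 73.2 in WT mice, and the epithelial sums between 7517 and 9056 against 12380 to 13460.

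Of the 63 members, 43 passed the filter and were tested, 15 of 28 ligands and 28 of 34 receptors. In Gm31629-/- mice, 16 of the 43 were called higher, 0 were called lower, and 27 were not called, where 18.4% of all 14657 tested genes were called higher, 4.64% lower, and 23.1% either way. No member was lower at an unadjusted p under 0.05 either, by limma or by limma's voom on recovered fragments, against 26 that were higher at that level by limma. The values of the 3 Gm31629-/- mice lay above those of the 3 WT mice without overlap for 26 of the 43 members, against 36.3% of all tested genes (57.8% when both directions are counted), and for 0 members they lay wholly below. The median log2 fold change was 0.80 over the 43 members and 0.15 over all tested genes. Called members were 5 of 15 tested ligands, Csf3, Il34, Il6, Osm, and Il10, and 11 of 28 tested receptors, Il10ra, Il6st, Il11ra1, Osmr, Lifr, Il6ra, Il7r, Il2rg, Il21r, Il3ra, and Il13ra2.

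These directions depended on what the libraries were scaled to. With each library scaled to 15 epithelial genes, 24 members were called higher and the member median was 1.23, with 0.69 over all genes. With scaling to the 10 pan-leukocyte genes, the median over all genes was -1.95, the member median was -0.27, 1 member (Csf3) was called higher, and 12 were called lower. Every family median given below is followed by its value on that scale. Among all genes, 79.9% of calls were higher on the FPKM scale, 64.7% with median-ratio scaling, 95.7% with epithelial scaling, and 3.59% with leukocyte scaling.

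**Figure D2:**
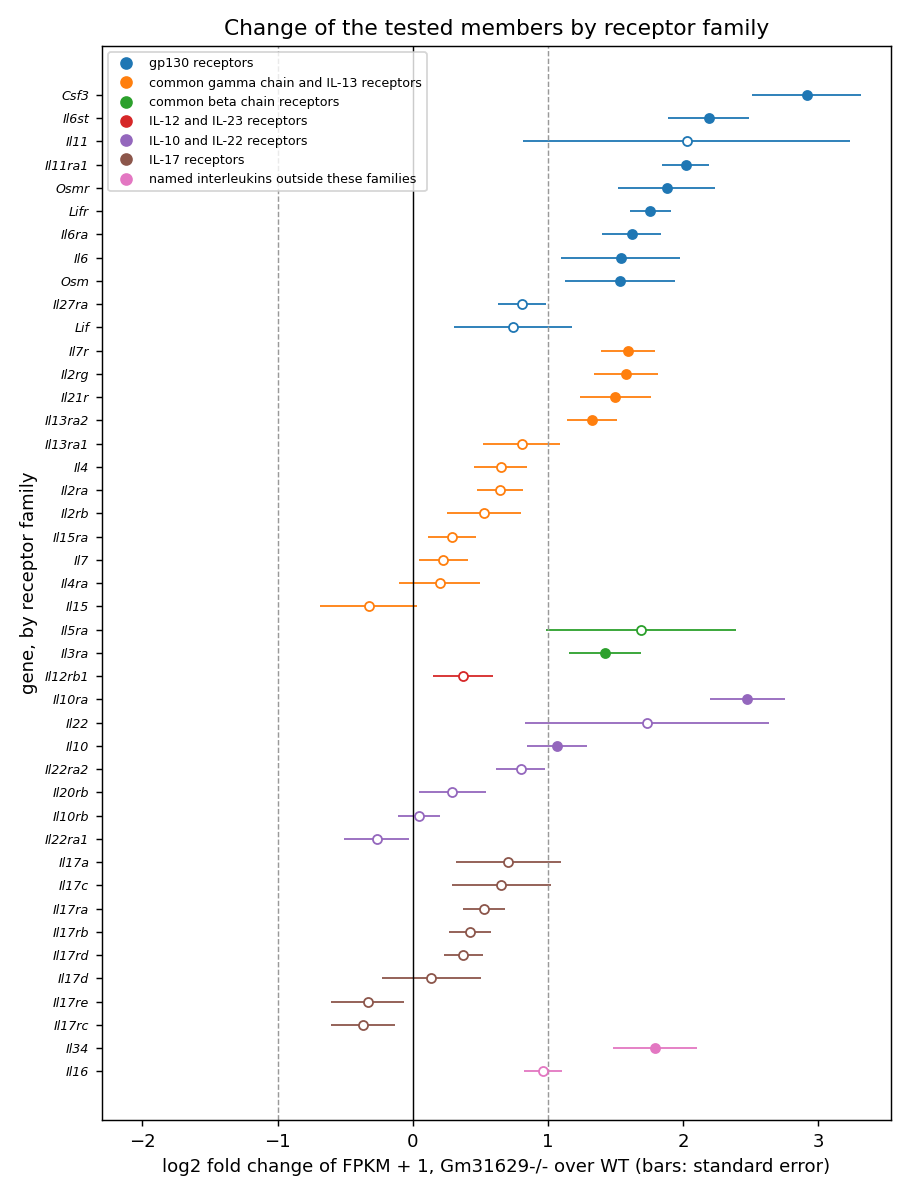
Log2 fold change of FPKM + 1 (Gm31629-/- over WT, bars are standard errors, 3 mice per group) for the 43 tested members, coloured by receptor family, with filled symbols for the 16 called higher and dashed lines at -1 and 1. The gp130 family holds 8 of the filled symbols and the IL-17 family 0, on the FPKM scale, and with scaling to leukocyte genes Csf3 alone stays called higher.

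The gp130 family had the most called members. Of its 14 listed genes, in which Csf3 is counted because its receptor resembles gp130, 11 were tested and 8 were called higher. Over all tested genes, 18.4% were called higher. The family's median log2 fold change was 1.76 (-0.12 with scaling to leukocyte genes). By group mean, its ligand Il11 was the most abundant interleukin of the set in Gm31629-/- mice (30.1 ± 27.4 FPKM, SD, n = 3), although not in mouse 1. The sequences upstream of 3 of these ligands are shown because Il6 was called higher, Lif was not, and Il11 depended on mouse 1. Each is the 250 bases before the transcription start (RefSeq, GRCm38.p6), 5′ to 3′ on the gene's strand, from chr5:30012864-30013113 (plus strand) for Il6, chr11:4257318-4257567 (plus strand) for Lif, and chr7:4782858-4783107 (minus strand) for Il11. Capitals mark matches to AP-1 (TGANTCA) and to the NF-kB motif, searched on both strands, and no match printed here overlaps another.
Il6: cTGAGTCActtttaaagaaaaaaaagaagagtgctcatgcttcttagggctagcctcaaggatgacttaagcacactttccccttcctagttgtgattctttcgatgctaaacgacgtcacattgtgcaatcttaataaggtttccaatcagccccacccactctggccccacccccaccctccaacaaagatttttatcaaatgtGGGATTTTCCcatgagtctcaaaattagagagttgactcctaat
Lif: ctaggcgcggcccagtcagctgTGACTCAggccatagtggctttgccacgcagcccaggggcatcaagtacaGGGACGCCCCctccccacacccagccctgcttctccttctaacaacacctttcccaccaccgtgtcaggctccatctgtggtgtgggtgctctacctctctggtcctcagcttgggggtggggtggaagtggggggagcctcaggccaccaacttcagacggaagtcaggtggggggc
Il11: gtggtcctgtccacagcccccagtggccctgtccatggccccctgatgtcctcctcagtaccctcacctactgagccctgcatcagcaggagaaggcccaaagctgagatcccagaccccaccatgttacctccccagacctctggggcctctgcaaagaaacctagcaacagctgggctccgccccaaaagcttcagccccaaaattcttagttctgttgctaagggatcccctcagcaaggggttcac
The AP-1 letters lie 249 to 243 bases before the start of Il6 and 228 to 222 bases before that of Lif, the NF-kB letters lie 44 to 35 and 178 to 169 bases before the start, and the Il11 window holds neither. Promoters were found for 46 of the 63 members, of which 9 (19.6%) hold the AP-1 letters and 5 (10.9%) the NF-kB motif, against 6.87% and 7.01% of the 27025 genes with a promoter in the table. Osm and Csf3 were not among them.

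Csf3, the gene of G-CSF, which drives the formation of neutrophils, had the largest fold change of the members on the log2(FPKM + 1) scale, while with voom on recovered fragments Il13ra2, Il7r, and Lifr exceeded it. It stood at 4.62, 17.6, and 7.36 FPKM in Gm31629-/- mice and at 0.230, 0.354, and 0.226 FPKM in WT mice. The lowest Gm31629-/- value was far above the highest WT value, with a log2 fold change of 2.91 (SE 0.40, limma adjusted p = 0.00186). Osm encodes oncostatin M, a cytokine of neutrophils and macrophages that acts on stroma, and measured 1.91, 6.94, and 1.63 FPKM in Gm31629-/- mice against 0.357, 0.220, and 0.515 FPKM in WT mice. Its groups did not overlap, and mouse 2 was well above mice 1 and 3 (log2 fold change 1.53, SE 0.41, limma adjusted p = 0.0213). Il6, the founding ligand of the family, measured 0.470, 4.53, and 2.65 FPKM in Gm31629-/- mice and 0.0668, 0.0915, and 0.0438 FPKM in WT mice. The groups did not overlap, but the Gm31629-/- mice themselves spread widely (log2 fold change 1.54, SE 0.44, limma adjusted p = 0.0277). The calls of these 2 ligands were less firm than that of Csf3. Il6 was called in 1 of the 6 fits that left out a mouse (limma adjusted p from 0.000872 without Gm31629-/- mouse 1 to 0.0877 without WT mouse 3), Osm in 3 of 6 (to 0.066 without WT mouse 2), and Csf3 in 6 of 6.

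Il11, a cytokine of stromal cells, was high in Gm31629-/- mice 2 and 3 alone. It measured 0.675, 54.9, and 34.6 FPKM in Gm31629-/- mice and 1.61, 4.11, and 2.70 FPKM in WT mice. Mouse 1 was therefore below each WT mouse while mice 2 and 3 were above each of them, and the gene was not called (log2 fold change 2.03, SE 1.21, limma adjusted p = 0.210). Without mouse 1 the log2 fold change was 3.60 (limma adjusted p = 0.000664), and without mouse 2 it was 1.07 (limma adjusted p = 0.493). Lif, whose product shares the LIF receptor and gp130, measured 3.37, 10.2, and 6.14 FPKM in Gm31629-/- mice and 6.28, 1.94, and 2.495 FPKM in WT mice. WT mouse 1 reached the level of Gm31629-/- mouse 3, so the groups overlapped and Lif was not called (log2 fold change 0.74, SE 0.44, limma adjusted p = 0.207). Il27, the sixth ligand, was under the filter, with 8, 33, and 7 recovered fragments in Gm31629-/- mice and 3, 1, and 1 in WT mice. Its exons share 10.1% of their bases with Apobr on the opposite strand, and Apobr was itself at 1.25 to 4.75 FPKM in Gm31629-/- mice and 0.296 to 0.514 FPKM in WT mice, so fragments of these genes cannot be told apart if counting ignored strand.

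**Figure D3:**
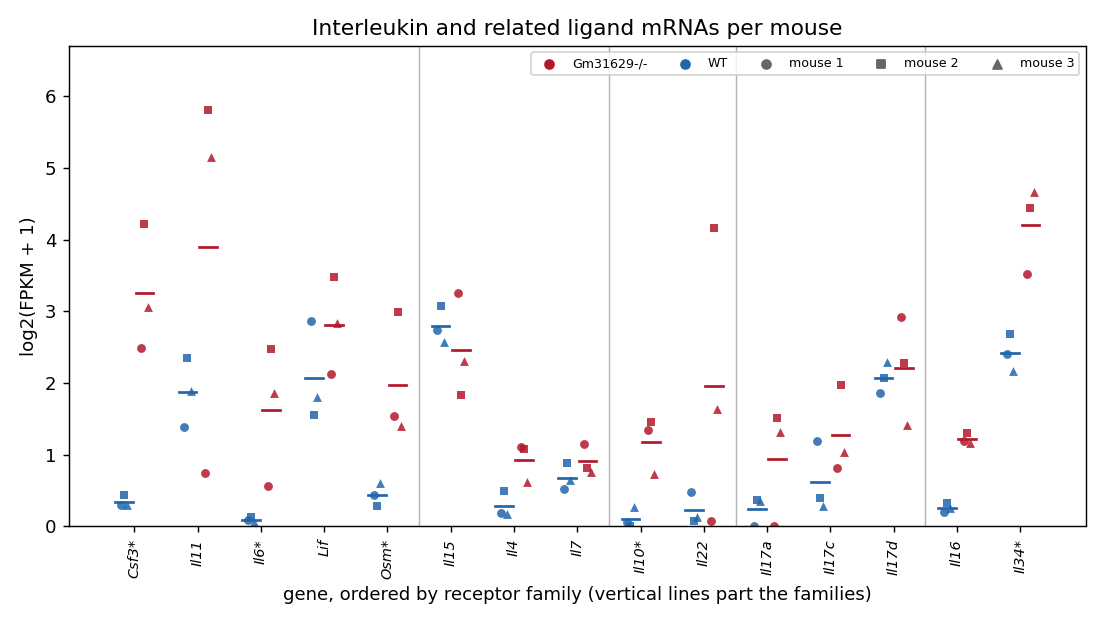
Level of each tested ligand as log2(FPKM + 1) in each mouse, red for Gm31629-/- and blue for WT, with short bars at the group means, vertical lines between receptor families, and an asterisk on each gene called higher. Il11, Il22, and Il17a are low in Gm31629-/- mouse 1 (circle) and high in mouse 2 (square), and the asterisks hold for the FPKM scale, where scaling to leukocyte genes leaves that of Csf3.

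Each tested receptor chain of the family was higher without overlap, and 5 of 6 were called. Over all tested genes, 36.3% lay above without overlap and 18.4% were called higher. With scaling to leukocyte genes none of these chains was called higher. Il6st (-0.36), Il11ra1 (-0.27), Osmr (-0.12), and Il27ra (-0.26) then turned negative, while Lifr (0.70) and Il6ra (0.41) stayed positive. Il6st (chr13:112464070-112510086), which encodes gp130 itself, measured 17.9, 40.9, and 20.1 FPKM in Gm31629-/- mice and 4.22, 4.71, and 4.91 FPKM in WT mice. The WT mice were tightly grouped and the ratio of the means was 5.70, with a log2 fold change of 2.19 (SE 0.30, limma adjusted p = 0.00173). Il11ra1 (chr4:41699989-41769474), the specific chain for IL-11, measured 13.9, 10.2, and 10.3 FPKM against 1.77, 2.25, and 2.15 FPKM. Here mouse 1 was the highest of its group, in contrast to its low Il11, and the log2 fold change was 2.02 (SE 0.18, limma adjusted p = 0.000397). Some of these fragments could belong to Il11ra2, a near-identical copy that was listed with 5 fragments in all.

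Osmr, the oncostatin M receptor chain, measured 4.04, 12.1, and 5.79 FPKM in Gm31629-/- mice and 1.58, 1.06, and 0.685 FPKM in WT mice (log2 fold change 1.88, SE 0.36, limma adjusted p = 0.00619). Lifr, the LIF receptor chain, was at 3.04, 2.77, and 2.31 FPKM in Gm31629-/- mice and was close to absent in WT mice at 0.0994, 0.134, and 0.0515 FPKM. Its SE was the smallest of the called members, with a log2 fold change of 1.76 (SE 0.15, limma adjusted p = 0.000393). Il6ra, the IL-6 binding chain, measured 2.92, 3.54, and 1.73 FPKM against 0.144, 0.257, and 0.172 FPKM (log2 fold change 1.62, SE 0.21, limma adjusted p = 0.0016). Il27ra, the IL-27 chain, was higher without overlap at 1.28 ± 0.42 FPKM against 0.289 ± 0.041 (SD, n = 3 each), but its log2 fold change of 0.81 stayed under the fold threshold (limma adjusted p = 0.0104), which it passed with epithelial scaling (1.095). Il31ra, which pairs with Osmr, was under the filter, with 9, 21, and 3 fragments in Gm31629-/- mice and 0 in each WT mouse. With fragments pooled over each group, this was at least 11.0-fold above a floor of 3 fragments over the WT group. That bound covers counting error and not the spread between mice. In the fit with no filter Il31ra was not called (limma adjusted p = 0.127). Within the Gm31629-/- group, mouse 2 was highest for 5 of 5 tested ligands and 4 of 6 tested receptors of the family. Among the marker lists, the smooth muscle, enteric neuron and glia, and endothelial sums rose most (ratios of mean sums 50.4, 20.5, and 17.65). The fibroblast, macrophage, and neutrophil sums moved in the same direction (14.3, 13.5, and 8.01). The part of these lists in the gp130 results was not tested.

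**Figure D4:**
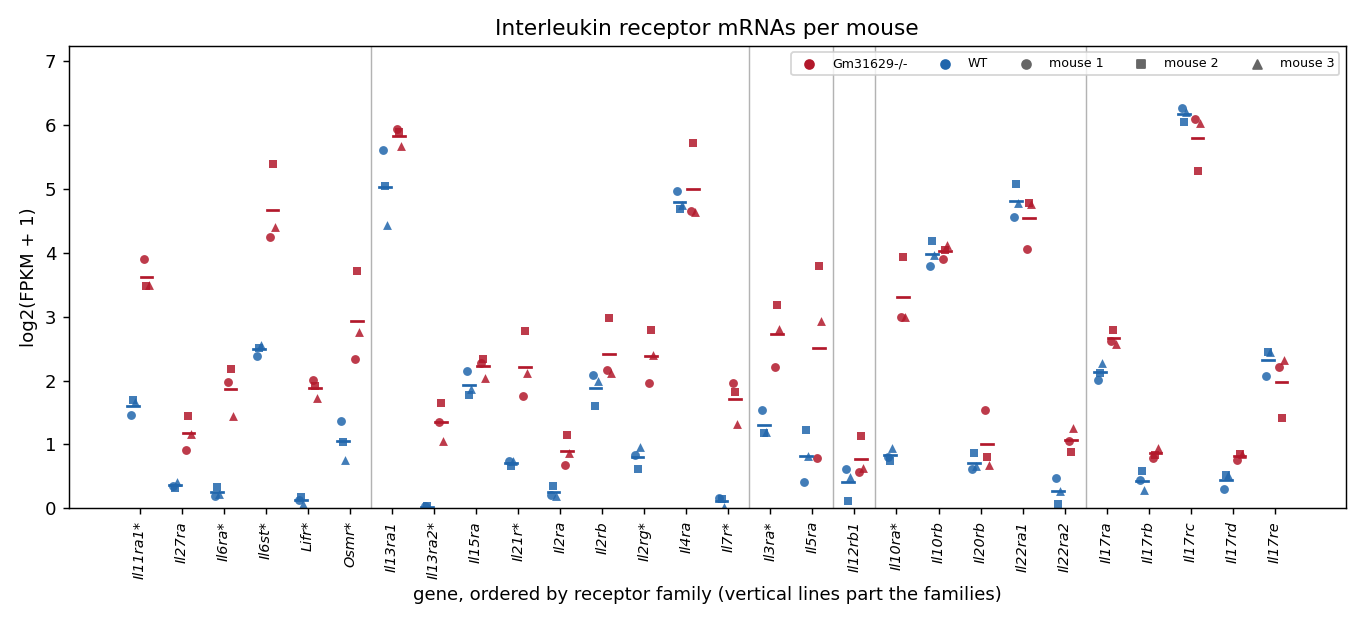
Level of each tested receptor as log2(FPKM + 1) in each mouse, drawn as for the ligands, with an asterisk on each gene called higher on the FPKM scale (with scaling to leukocyte genes none of these receptors was called higher). Lifr, Il6ra, Il7r, and Il13ra2 lie near 0 in the WT mice, while Il17rc, Il13ra1, Il4ra, Il22ra1, and Il10rb are the highest receptors of both groups apart from Il6st.

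The common gamma chain and IL-13 receptor family held 4 called receptors, of 9 tested, and 0 called ligands, of 3 tested. Over all tested genes, 18.4% were called higher. Of the family's 16 listed genes, 12 were tested, with a median log2 fold change of 0.65 (-0.58 with scaling to leukocyte genes). The windows upstream of Il7r and Il13ra2 are shown, since both genes went from few fragments in WT mice to a clear level in Gm31629-/- mice. They are the 250 bases before the start (RefSeq, GRCm38.p6), at chr15:9529877-9530126 for Il7r and chrX:147429193-147429442 for Il13ra2, both on the minus strand and written 5′ to 3′, with capitals on a STAT match (TTCNNNGAA) in Il7r and an AP-1 match (TGANTCA) in Il13ra2.
Il7r: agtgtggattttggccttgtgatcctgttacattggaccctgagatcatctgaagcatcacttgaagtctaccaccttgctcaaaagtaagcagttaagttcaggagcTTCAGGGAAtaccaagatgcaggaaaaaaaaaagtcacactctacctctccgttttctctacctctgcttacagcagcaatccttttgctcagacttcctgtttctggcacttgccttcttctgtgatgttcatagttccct
Il13ra2: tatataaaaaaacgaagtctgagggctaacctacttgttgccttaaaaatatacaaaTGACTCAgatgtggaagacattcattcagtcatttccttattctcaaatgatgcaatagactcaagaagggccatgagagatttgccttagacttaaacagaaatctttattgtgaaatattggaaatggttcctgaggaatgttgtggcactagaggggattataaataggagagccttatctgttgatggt
The STAT letters lie 142 to 134 bases before the start of Il7r and the AP-1 letters 193 to 187 bases before that of Il13ra2. The STAT letters occur in 4 of the 46 member promoters (8.70%) and in 7.18% of all promoters.

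Il7r, the chain for IL-7 and thymic stromal lymphopoietin, measured 2.88, 2.55, and 1.51 FPKM in Gm31629-/- mice and 0.118, 0.104, and 0.0166 FPKM in WT mice (log2 fold change 1.59, SE 0.20, limma adjusted p = 0.0013). Il2rg, the common gamma chain, was at 2.89, 5.90, and 4.29 FPKM against 0.793, 0.535, and 0.936 FPKM (log2 fold change 1.58, SE 0.24, limma adjusted p = 0.00254). Il21r, the IL-21 chain of lymphocytes, measured 2.37, 5.82, and 3.32 FPKM against 0.667, 0.585, and 0.672 FPKM (log2 fold change 1.497, SE 0.26, limma adjusted p = 0.00452). For these 3 receptors no Gm31629-/- mouse came near the WT range. Il13ra2, a decoy receptor that binds IL-13, measured 1.55, 2.14, and 1.07 FPKM in Gm31629-/- mice, while the WT mice had 1, 1, and 0 fragments (log2 fold change 1.33, SE 0.19, limma adjusted p = 0.00191). The calls of these 4 receptors held in each of the 6 fits that left out a mouse, and Il2rg, Il13ra1, and Il13ra2 are X-linked genes.

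The signalling chains for IL-4 and IL-13 were abundant in both genotypes and were not called. Il13ra1 was at 60.1, 58.4, and 49.7 FPKM in Gm31629-/- mice and at 47.7, 31.9, and 20.6 FPKM in WT mice, above them without overlap, with a log2 fold change of 0.80 (SE 0.29, limma adjusted p = 0.0560). Il4ra was at 33.2 ± 16.0 FPKM against 27.0 ± 2.93 (SD, n = 3 each), where mouse 2 alone exceeded the WT range (log2 fold change 0.20, limma adjusted p = 0.616, and -0.054 with median-ratio scaling). Il2ra, the high-affinity IL-2 chain, was at 0.881 ± 0.317 FPKM against 0.194 ± 0.077 and passed on p but not on fold (log2 fold change 0.64, limma adjusted p = 0.0216). Il2rb, shared by IL-2 and IL-15, differed by 0.53 on the log2 scale (limma adjusted p = 0.154) and Il15ra by 0.29 (limma adjusted p = 0.215). Il9r, under the filter, had 57, 22, and 75 fragments in Gm31629-/- mice and 10, 2, and 5 in WT mice, with no overlap.

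The ligands of this family were low or did not pass the test. Il15, made by epithelium and myeloid cells to sustain intraepithelial lymphocytes, measured 8.56, 2.56, and 3.95 FPKM in Gm31629-/- mice and 5.69, 7.42, and 4.92 FPKM in WT mice. It was the ligand with a negative log2 fold change, -0.33 (SE 0.36, limma adjusted p = 0.483), with mouse 1 above the WT range and mice 2 and 3 below it, and it was -0.72 without mouse 1 (limma adjusted p = 0.0493) and -0.012 without mouse 2 (limma adjusted p = 0.979). Il4, the type 2 cytokine of T cells and mast cells, was at 1.15, 1.104, and 0.532 FPKM against 0.132, 0.407, and 0.1301 FPKM, without overlap but under the fold threshold (log2 fold change 0.65, SE 0.19, limma adjusted p = 0.0318), and it was called with a pseudocount of 0.1 and with voom. Il7, a stromal and epithelial survival factor for lymphocytes, measured 1.21, 0.756, and 0.692 FPKM against 0.429, 0.843, and 0.564 FPKM, with overlapping groups (log2 fold change 0.22, SE 0.18, limma adjusted p = 0.344). Il2, Il13, and Il21 had at most 23 fragments each over the 6 libraries, and those of Il21 came from Gm31629-/- mice alone, at 8, 10, and 5. The T cell and leukocyte sums moved with these receptors, and their part was not tested.

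Among common beta chain receptors, whose ligands IL-3, IL-5, and GM-CSF act on myeloid cells and eosinophils, the ligand-binding chains passed the filter and the ligands did not. Over 2 tested receptors of 4 listed genes the median log2 fold change was 1.56 (-0.34 with scaling to leukocyte genes). Il3ra measured 3.63, 8.04, and 6.00 FPKM in Gm31629-/- mice and 1.91, 1.27, and 1.29 FPKM in WT mice, without overlap (log2 fold change 1.42, SE 0.27, limma adjusted p = 0.00574). Il5ra measured 0.730, 12.9, and 6.67 FPKM against 0.333, 1.35, and 0.759 FPKM. Mouse 1 lay inside the WT range and mice 2 and 3 far above it, so that the log2 fold change of 1.69 was not called (SE 0.70, limma adjusted p = 0.0896), and it was 2.55 without mouse 1 (limma adjusted p = 0.00233) and 1.04 without mouse 2 (limma adjusted p = 0.217). Csf2 and Il5 had 21 and 9 fragments over the 6 libraries. The summed mast cell and eosinophil genes, of which 1 of 5 tested was higher, ranged from 7.29 to 13.1 FPKM in Gm31629-/- mice and from 6.44 to 7.67 in WT mice. Without Kit, which was not called, they came to 4.06, 7.59, and 4.26 FPKM in Gm31629-/- mice against 1.56 to 2.22 in WT mice. The part of these genes' cells in the Il5ra level was not tested.

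The IL-10 and IL-22 family divided by receptor chain. Over 7 tested of 9 listed genes, 2 were called higher, Il10ra and Il10, where 18.4% of all tested genes were. The family's median log2 fold change was 0.80 (-0.083 with scaling to leukocyte genes). Il10ra (chr9:45253837-45269149), the IL-10 binding chain of leukocytes, measured 6.94, 14.2, and 6.94 FPKM in Gm31629-/- mice and 0.742, 0.667, and 0.928 FPKM in WT mice. The ratio of the means was 12.04 and the log2 fold change 2.47 (SE 0.28, limma adjusted p = 0.000845). Il10rb, the chain shared by IL-10 and IL-22, was at 15.3 ± 1.25 FPKM against 14.9 ± 2.17 (SD, n = 3 each), with a log2 fold change of 0.043 (SE 0.16, limma adjusted p = 0.838) that turned to -0.20 with median-ratio scaling and was 0.72 with epithelial scaling (limma adjusted p = 0.0089). Il22ra1, the IL-22 chain of epithelium, was at 22.8 ± 6.17 FPKM against 27.2 ± 5.09, with overlapping groups (log2 fold change -0.27, SE 0.24, limma adjusted p = 0.393, -0.030 without mouse 1, and 0.42 with epithelial scaling).

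Il10, the cytokine that restrains macrophages, measured 1.53, 1.74, and 0.665 FPKM in Gm31629-/- mice and 0.0413, 0, and 0.203 FPKM in WT mice. The groups did not overlap and the log2 fold change was 1.07 (SE 0.22, limma adjusted p = 0.00838), close to the threshold, so that it was 0.99 without Gm31629-/- mouse 1, 0.93 without mouse 2, and 0.98 with median-ratio scaling, and in these 3 fits Il10 was not called. Il22, which acts on epithelium, measured 0.0490, 16.9, and 2.11 FPKM against 0.390, 0.05003, and 0.0959 FPKM. Mouse 2 stood far above every other mouse, mouse 1 had 1 fragment, as did WT mouse 2, and the log2 fold change of 1.73 was not called (SE 0.90, limma adjusted p = 0.158), while it was 2.67 without mouse 1 (limma adjusted p = 0.0221) and 0.63 without mouse 2 (limma adjusted p = 0.293). Il22ra2, the soluble protein that binds IL-22, was at 1.09, 0.846, and 1.39 FPKM against 0.390, 0.0445, and 0.213 FPKM, above without overlap and under the fold threshold (log2 fold change 0.80, SE 0.18, limma adjusted p = 0.0115).

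Chains and ligands of the IL-20 group were at low levels. Il20rb was at 1.08 ± 0.709 FPKM against 0.647 ± 0.150 (SD, n = 3 each), with overlap (log2 fold change 0.29, limma adjusted p = 0.363, and 0.030 without mouse 1). Il20ra, under the filter, had 8, 37, and 23 fragments in Gm31629-/- mice and 0, 1, and 0 in WT mice. Il19 had 11, 20, and 2 fragments in Gm31629-/- mice and 0 in each WT mouse. With fragments pooled over each group, this was at least 11.0-fold above a floor of 3 fragments over the WT group. That bound covers counting error and not the spread between mice. In the fit with no filter Il19 was not called (limma adjusted p = 0.0865). The macrophage sum moved with Il10 and Il10ra, and the innate lymphoid and Th17-type sum, of the cells known to make IL-22, was 48.4 in mouse 1, 35.2 in mouse 2, and 38.4 FPKM in mouse 3, and their part was not tested.

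In the IL-17 family 0 of 8 tested genes were called either way, where 23.1% of all tested genes were. The family's median log2 fold change was 0.40 (-1.16 with scaling to leukocyte genes). Its receptor Il17rc, the chain that pairs with Il17ra to bind IL-17A and IL-17F, was the most abundant member in both groups, at 67.5, 37.7, and 64.1 FPKM in Gm31629-/- mice and 75.8, 64.7, and 72.8 FPKM in WT mice. Its groups overlapped through mouse 1 (log2 fold change -0.37, SE 0.23, limma adjusted p = 0.236, and 0.34 with epithelial scaling). Il17re, the IL-17C chain of epithelium, was at 3.10 ± 1.25 FPKM against 4.01 ± 0.716 (SD, n = 3 each), which was a log2 fold change of -0.33 (limma adjusted p = 0.345) that turned to 0.21 with epithelial scaling. Il17ra, the shared chain, was above the WT mice without overlap at 5.34 ± 0.521 FPKM against 3.40 ± 0.421, and passed on p but not on fold (log2 fold change 0.53, SE 0.16, limma adjusted p = 0.0309). Il17rb and Il17rd were also higher without overlap, by 0.42 and 0.37 on the log2 scale (limma adjusted p = 0.0578 and 0.0742), and both were called by voom on recovered fragments, which adds no 1 to the FPKM.

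The IL-17 ligands differed between the Gm31629-/- mice. Il17a, the neutrophil-recruiting cytokine of Th17 and innate lymphoid cells, was listed at 0, 1.85, and 1.49 FPKM in Gm31629-/- mice and at 0, 0.285, and 0.273 FPKM in WT mice, from 84 fragments in all. Mice 2 and 3 were above each WT mouse and mouse 1 had no fragment, and the log2 fold change was 0.71 (SE 0.39, limma adjusted p = 0.177) with all mice, 1.18 without mouse 1 (limma adjusted p = 0.00365), and 0.42 without mouse 2 (limma adjusted p = 0.405). Il17f followed the same order, with 2, 89, and 11 fragments in Gm31629-/- mice and 0, 5, and 0 in WT mice. Il17c, an epithelial cytokine, measured 0.756, 2.94, and 1.06 FPKM against 1.28, 0.309, and 0.222 FPKM, with overlap through WT mouse 1 (log2 fold change 0.66, SE 0.37, limma adjusted p = 0.184). Il17d measured 6.57, 3.87, and 1.67 FPKM against 2.63, 3.18, and 3.88 FPKM, where mouse 1 was above and mouse 3 below the WT range (log2 fold change 0.14, SE 0.37, limma adjusted p = 0.785, -0.22 without mouse 1 and -0.071 with median-ratio scaling). Il17b and Il25 had at most 15 fragments each over the 6 libraries.

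The IL-12 and IL-23 family was represented by few fragments. Il12rb1, the shared receptor chain and the 1 tested gene of 6, was at 0.741 ± 0.400 FPKM in Gm31629-/- mice and 0.341 ± 0.235 FPKM in WT mice (SD, n = 3 each), with overlap (log2 fold change 0.37, SE 0.22, limma adjusted p = 0.213, and -0.53 with scaling to leukocyte genes). Il12b, the p40 subunit of IL-12 and IL-23, had 16, 45, and 7 fragments in Gm31629-/- mice and 1, 2, and 5 in WT mice. Il23a, the p19 subunit, had 2, 36, and 8 against 4, 1, and 3 fragments, so that mouse 2 held most of its signal. Il12a, the p35 subunit, had 25, 3, and 9 against 1, 3, and 1 fragments, and there mouse 1 was the highest. Il12rb2 had 5, 20, and 5 against 4, 1, and 5 fragments, and 40.04% of its exon bases overlap Serbp1 on the opposite strand, which was at 6.44 to 10.004 FPKM over the 6 mice. Il23r had 11 fragments in all.

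Il34 and Il16 belong to none of these families, and their median log2 fold change was 1.38 (-0.36 with scaling to leukocyte genes). Il34, which signals through the receptor of CSF1 and sustains macrophages, measured 10.4, 20.8, and 24.3 FPKM in Gm31629-/- mice and 4.28, 5.41, and 3.50 FPKM in WT mice. Its groups were well apart (log2 fold change 1.79, SE 0.31, limma adjusted p = 0.00436), and after Il11 it was the most abundant ligand in Gm31629-/- mice. Il16, a ligand of CD4 made by lymphocytes, was at 1.28, 1.46, and 1.25 FPKM against 0.151, 0.247, and 0.189 FPKM. Its log2 fold change of 0.96 fell just short of the fold threshold with an SE of 0.14 (limma adjusted p = 0.00223), and it was called with a pseudocount of 0.1 and with voom. Of its exon bases, 15.3% overlap Stard5 on the opposite strand, which moved the other way, at 6.13 to 8.91 FPKM in Gm31629-/- mice and 17.3 to 22.9 FPKM in WT mice. Il4i1, an amino acid oxidase of myeloid cells, had 13 fragments in all. Of its exon bases, 83.9% overlap Tbc1d17 on the opposite strand, which was at 2.92 to 4.65 FPKM over the 6 mice. Fragments of these 2 genes cannot be told apart there if counting ignored strand, so the low count does not show that Il4i1 was absent.

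By adjusted p without the fold threshold, 22 of the 43 members were higher, against 28.9% of all tested genes. The 6 added were Il16, Il27ra, Il22ra2, Il4, Il2ra, and Il17ra. The first 5 of these were also called by both thresholds with a pseudocount of 0.1 (log2 fold change 2.28, 1.79, 2.08, 1.71, and 1.72) and with voom (2.77, 2.08, 2.68, 2.07, and 2.16). Of the 20 members under the filter, 9 had each Gm31629-/- mouse above each WT mouse, against 25.0% of all 12889 genes under the filter, and the others overlapped.

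Leaving out Gm31629-/- mouse 1 raised the number of called members from 16 to 19. Il11, Il22, Il5ra, and Il17a were added and Il10 was lost. The log2 fold changes of the 4 added genes shrank to 1.07, 0.63, 1.04, and 0.42 when mouse 2 was left out instead, and none of them was then called. Leaving out mouse 2, which had the highest value for most members, left 14 of the 16 called, without Il6 and Il10. Leaving out mouse 3 left 15, without Il6. Socs3, a feedback gene of the gp130 pathway that is no member, was also low in mouse 1, at 27.5, 180, and 60.6 FPKM in Gm31629-/- mice against 34.0, 28.7, and 29.0 FPKM in WT mice (log2 fold change 1.12, SE 0.59, limma adjusted p = 0.163). Mouse 1 also differed from mice 2 and 3 in its sex-linked transcripts, and the part of this in its Il11, Il22, Il5ra, and Il17a levels was not tested.

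**Figure D5:**
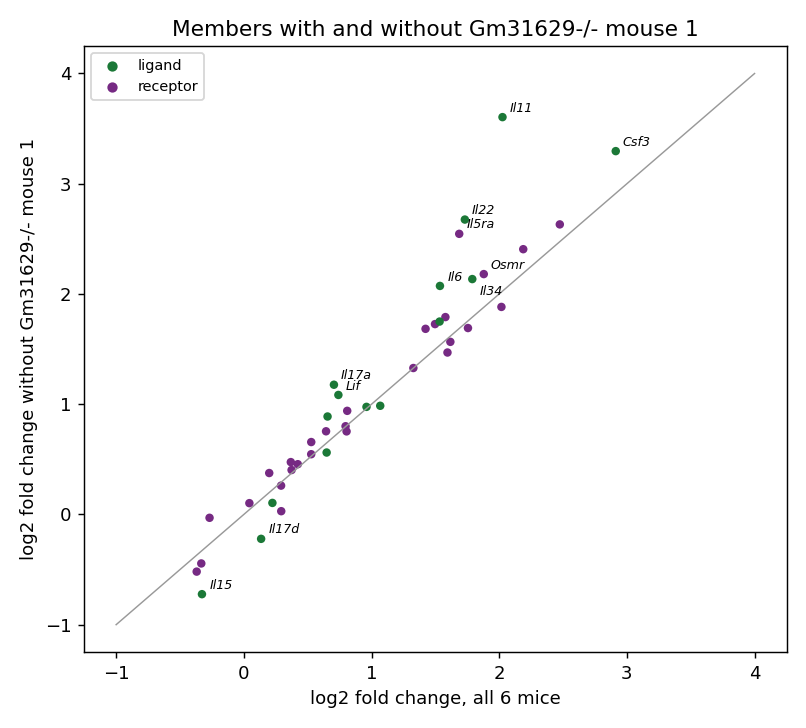
Log2 fold change of each tested member with all 6 mice (x axis) and without Gm31629-/- mouse 1 (y axis), on the FPKM scale, with a grey line where both are equal. Il11 moves from 2.03 to 3.60, Il22 from 1.73 to 2.67, and Il5ra from 1.69 to 2.55, while Il15 moves from -0.33 to -0.72.

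Receptor chains, alternative ligands, and transducers of the same pathways that the symbol rule leaves out were also examined. Of 20 partner genes, 13 were tested, 7 were called higher, and 0 were called lower, where 18.4% of all tested genes were called higher. They were Csf1r, the receptor of IL-34 (log2 fold change 3.04), Csf2rb and Csf2rb2, the common beta chain and its mouse copy (2.73 and 2.68), Csf3r (2.12), Cd4 (1.70), Clcf1, a further gp130 ligand (1.45), and Cntfr (1.39). Csf2rb and Csf2rb2 are near-identical and their fragments may be shared between them. Among 15 JAK, STAT, and adaptor genes, 14 were tested and 1 was called, Jak2, at 22.3, 23.97, and 17.3 FPKM in Gm31629-/- mice and 11.7, 10.7, and 6.96 FPKM in WT mice (log2 fold change 1.06). Jak1, Irs2, and Stat3 also lay above the WT mice without overlap (log2 fold change 0.56, 0.59, and 0.36), so that 4 of 14 did so, against 36.3% of all tested genes. Stat6, Traf6, and Tyk2 lay below the WT mice without overlap but within the fold threshold (log2 fold change -0.51, -0.44, and -0.73), 3 of 14 against 21.5% of all tested genes. Of 6 feedback genes, Socs3 included, 0 were called.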

How the data were processed

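RNA-Seq libraries (TruSeq, 1 per mouse) were made from colon of 3 Gm31629-/- and 3 WT mice given DSS. The authors deposited FPKM values for 27546 genes. The submitters' processing notes name HISAT2 2.1.0, HTSeq 0.6.0, and GRCm38, while the annotation release and strand setting are not given in the sources used here. The methods describe RNAs as pooled, whereas the table has a column per mouse, and the columns were treated as separate mice. Symbols, positions, and exon lengths came from GENCODE M21 (27488 identifiers matched). Fragments were recovered from FPKM steps, and 96.3% to 97.3% of values up to 20 fragments lay within 0.1 of a whole number. A 0 allows up to 3 fragments, for counting error only. No library repeated another, since chi-square values per gene were 32.3 to 47.0 between WT mice and 97.4 to 144 between Gm31629-/- mice.

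In R 4.3.3, limma 3.58.1 compared the groups by lmFit and trended eBayes, for the 14657 genes averaging 0.5 FPKM or more and on log2 values after a pseudocount of 1, with Benjamini-Hochberg adjustment over those genes. The study's own test, DEGseq, was not repeated. The fit was tested on simulated data. Members, receptor families, marker lists, and pathway lists were chosen with earlier results of these data known. Values per mouse are given for each called member and each tested ligand, group values or fold changes for other tested members, and fragments for members under the filter with at least 30 in all. The lists comprised 13 cell types, partner genes, transducers, and feedback genes. A gene of the enteric neuron and glia list is not reported here and was left out of its sum. Alternatives were no filter, a filter at a mean of 0.1 FPKM, a pseudocount of 0.1, TPM scale, median-ratio scaling, scaling to 15 epithelial or 10 leukocyte genes, eBayes without a trend, the replicate block, voom on recovered fragments, adjusted p alone, unadjusted p with the fold threshold, and leaving out each mouse. Promoters were taken from RefSeq (GRCm38.p6). Figures were drawn with matplotlib 3.10.9.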

Additional observations from a re-analysis of the deposited data

How the results depend on the processing

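Of the 16 members called higher, 16 stayed called with a pseudocount of 0.1, a filter at a mean of 0.1 FPKM, the TPM scale, epithelial scaling, eBayes without a trend, the replicate block, voom, adjusted p alone, and unadjusted p with the fold threshold, 15 with median-ratio scaling (Il10 lost), 14 with no filter (Il6 and Osm lost), and 1 (Csf3) with leukocyte scaling. The median of the members was 1.79 with a pseudocount of 0.1, 1.23 with epithelial scaling, -0.27 with leukocyte scaling, and 2.07 with voom, against 0.80, and it ranged from 0.68 to 0.98 when 1 mouse was left out. Called members numbered 24 higher with epithelial scaling, 1 higher and 12 lower with leukocyte scaling, 23 higher with voom, 21 with a pseudocount of 0.1, 22 by adjusted p alone, and 14 to 19 when 1 mouse was left out, with 0 lower in each except leukocyte scaling. Over all genes, 2704 were called higher and 680 lower, against 1217 lower with median-ratio scaling, 4900 higher and 218 lower with epithelial scaling, 395 higher and 10596 lower with leukocyte scaling, 4238 higher and 2138 lower by adjusted p alone, 3645 higher and 993 lower with voom, 983 lower with a pseudocount of 0.1, and 2285 to 2892 higher and 513 to 766 lower when 1 mouse was left out. The cause of these differences was not tested beyond the scaling itself.

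Genes that turned direction with median-ratio scaling were Il4ra (-0.054), Il10rb (-0.20), and Il17d (-0.071). With epithelial scaling they were Il17re (0.21), Il15 (0.27), Il17rc (0.34), and Il22ra1 (0.42). With leukocyte scaling they were Il17rd (-0.60), Il4 (-0.21), Il2ra (-0.19), Il4ra (-2.50), Il21r (-0.19), Il22ra2 (-0.083), Il10rb (-2.56), Il20rb (-0.93), Il17d (-1.97), Il27ra (-0.26), Il15ra (-1.81), Il11ra1 (-0.27), Il2rb (-1.63), Il16 (-0.011), Il17a (-0.10), Il12rb1 (-0.53), Il5ra (-0.047), Il6st (-0.36), Il17c (-0.60), Il11 (-0.19), Osmr (-0.12), Il17ra (-1.72), Il17rb (-0.55), Lif (-1.51), Il7 (-0.94), Il13ra1 (-1.93), Il3ra (-0.64), Il2rg (-0.19), and Il34 (-0.71). When 1 mouse was left out, Il17d ranged from -0.22 to 0.53, Il4ra from -0.16 to 0.38, and Il10rb from -0.050 to 0.15.

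Mice of the 2 groups that carry the same number did not deviate together (correlations of 0.036, -0.108, and 0.014). Mice of different numbers gave correlations of -0.133 to 0.116. With 3 mice per group, these values cannot show whether the numbers pair the mice. The fit with the replicate block called 17 members higher, adding Il5ra. The libraries had depths of 18000600 to 18791300 fragments. The filter, a mean of 0.5 FPKM, left out 20 members, of which 10 had under 30 fragments in all.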
